A study of Mus musculus with 36 samples.

Results

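The oxidative phosphorylation genes of the mouse were taken as the protein-coding genes of the GENCODE M21 annotation whose symbols name subunits of complexes I to V, with the Ndufaf factors and Atp5s that the same symbol stems bring in. They came to 95 gene entries with 94 symbols and a listed intron, of 31890 genes in all, and held 416 of the 219945 introns measured. By role, 36 belong to complex I, 4 to complex II, 9 to complex III, 20 to complex IV and 17 to complex V, and 9 are assembly or coupling factors. The study set Zrsr2-deficient (KO) against wild-type (WT) C57BL/6 mice: embryonic fibroblasts (MEF), and megakaryocyte-erythroid (MEP), granulocyte-macrophage (GMP) and common myeloid (CMP) progenitors sorted from bone marrow, each from 3 KO and 3 WT males, the 3 progenitor types of 1 number coming from 1 mouse. It also cultured Lin-Kit+ marrow cells of both genotypes with 1 of 2 hairpins against Zrsr1 (sh1, sh10) or a control hairpin, in 2 experiments, so that every one of those groups carries a hairpin vector. ZRSR2 is a protein of the minor spliceosome, which removes U12-type introns, and Zrsr1 is its close relative. The labels give no ages.

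Oxidative phosphorylation makes ATP at the inner mitochondrial membrane. Complex I takes electrons from NADH and complex II from succinate, coenzyme Q carries them to complex III and cytochrome c to complex IV, where oxygen is reduced, and the proton gradient built on the way drives complex V, the ATP synthase. Most subunits are encoded in the nucleus and imported, a core set is encoded in mitochondrial DNA and, having no introns, is not analysed here, and some subunits of complexes IV and V come as isoforms from separate genes used in different tissues. In bone marrow, erythroid precursors depend on mitochondria for heme synthesis, whose first and last steps take place there.

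Each library was a table of reads spliced across each intron and of reads crossing its exon-intron boundaries. A gene's amount is given in CPM, its spliced counts summed over introns and scaled to a library of 1000000 spliced counts, which serves only to compare libraries, and levels of different genes are compared as the CPM of the best-covered single intron (per-intron level). Spliced counts ran from 43514139 to 61124920 in MEF, 44083233 to 84832431 in progenitor and 30481450 to 43345548 in Lin-Kit+ libraries. Zrsr2, the deleted gene, had 0 to 1.52 CPM in 18 KO libraries, against 19.2 to 34.2 CPM in 18 WT libraries. The knockdown of Zrsr1 was not analysed here, since none of the introns belongs to it. In the annotation, 28 of the 95 genes overlap another protein-coding gene, among them Ndufa13, Ndufb5, Ndufb6, Ndufb9, Ndufb11, Ndufs1, Uqcrc2, Cox4i1, Cox6a2, Atp5a1, Atp5d, Atp5o and Ndufaf3. Without strand, the boundary reads of overlapping genes cannot be told apart. Spliced reads were counted for each intron, and 3 introns of these genes are shared with another gene. The labelled cell types carried their markers: 8 fibroblast genes summed to 57721 to 68132 CPM in WT MEF and at most 40.5 CPM in WT progenitors. The 8 erythroid genes summed to 4797 to 5559 CPM in WT MEP, 115 to 251 CPM in WT GMP and 620.1 to 1471 CPM in WT CMP, and 7 granulocyte-monocyte genes to 37.4 to 55.95, 26325 to 31716 and 2578 to 4134 CPM in the same order.

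Together the 95 genes took 0.983 ± 0.0482% of all spliced counts in KO MEF, 1.99 ± 0.0929% in KO MEP, 1.55 ± 0.0768% in KO GMP and 1.46 ± 0.023% in KO CMP (mean ± SD, n = 3 libraries each). The WT values were 1.05 ± 0.0383% in MEF, 1.999 ± 0.0826% in MEP, 1.56 ± 0.058% in GMP and 1.46 ± 0.0347% in CMP. KO and WT overlapped in each of the 4 cell types, and the MEP libraries of both genotypes stood above all other libraries. The lowest WT GMP library, at 1.497%, lay next to the highest WT CMP library, at 1.49%. In the cultured Lin-Kit+ cells the 6 group means lay between 1.03% and 1.203%, and experiment 1 was above experiment 2 in every group. In bulk samples, fewer cells of a type and less RNA per cell cannot be told apart.

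**Figure D1:**
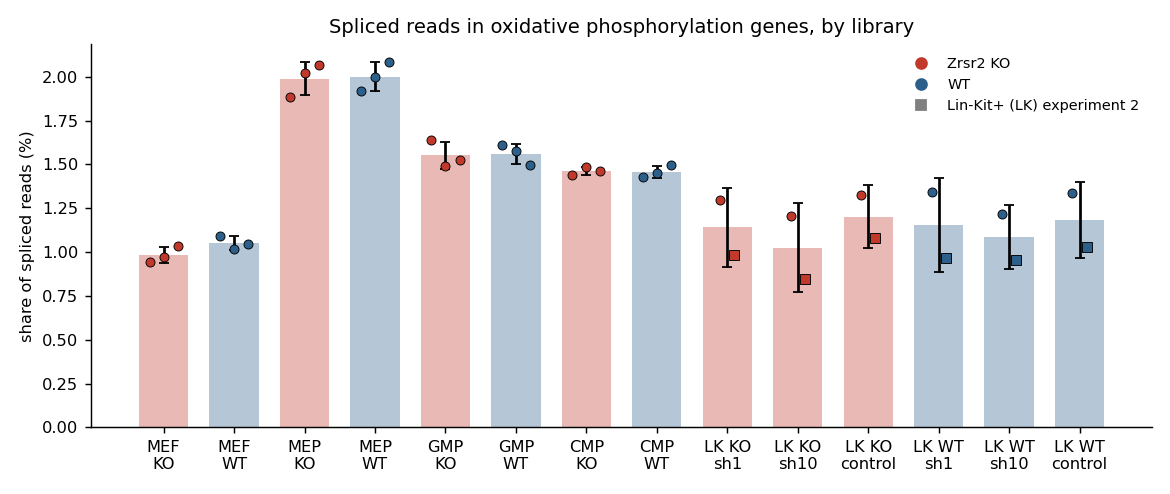
Share of each library's spliced counts that fell in the 95 genes (y axis, percent) by group (x axis, LK for Lin-Kit+ cells). Bars are group means, error bars SDs, and points single libraries, with squares for experiment 2 of the Lin-Kit+ cells. MEP libraries lie between 1.89% and 2.08%, above all others, and KO and WT overlap in every cell type.

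On the per-intron scale, genes of complexes IV and V had the highest levels and the assembly factors the lowest. In WT MEP the median level of genes with at least 1 CPM was 107 CPM in complex V, 107 CPM in complex IV, 66.3 CPM in complex III, 52.2 CPM in complex II, 35.05 CPM in complex I and 6.72 CPM for the assembly factors. In WT MEF the same medians were 60.2, 49.6, 29.3, 26, 20.4 and 3.46 CPM. Atp5b, the catalytic beta subunit of the synthase, had the highest level in all 4 WT cell types, with 140.4 ± 17.1 CPM in MEF, 331 ± 9.75 CPM in MEP, 229.9 ± 12.98 CPM in GMP and 243 ± 28.2 CPM in CMP (SD, n = 3). On this scale the GMP and CMP means differed by less than the SD in CMP, while the counts summed over introns were higher in GMP (0.20 ± 0.06 SE, adjusted p = 0.0234, edgeR). Atp5d, the delta subunit of the central stalk, was the lowest complex V gene in WT MEP at 67.5 ± 2.47 CPM and in WT CMP at 33.7 ± 4.13 CPM, and Atp5c1, the gamma subunit, in WT MEF at 36.1 ± 2.104 CPM. In complex IV, Cox4i1, a nuclear-encoded regulatory subunit, led in WT MEF at 107 ± 2.28 CPM and in WT MEP at 157 ± 5.31 CPM, while Ndufa4, a subunit first assigned to complex I, led in WT GMP at 155 ± 10.2 CPM and in WT CMP at 144 ± 6.05 CPM.

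In complex III the highest level in each WT cell type was that of Uqcrh, the acidic hinge protein, with 59.3 ± 1.32 CPM in MEF, 107 ± 8.65 CPM in MEP, 79.7 ± 0.582 CPM in GMP and 96.1 ± 3.27 CPM in CMP. The lowest was that of Uqcrfs1, the Rieske iron-sulfur protein, with 13.4 ± 0.342, 22.4 ± 6.57, 13.6 ± 2.198 and 9.54 ± 1.23 CPM in the same order. In complex II the membrane anchor Sdhd was the highest gene in WT MEP at 60.9 ± 1.697 CPM but the lowest in WT MEF at 20.3 ± 1.35 CPM and in WT CMP at 29.5 ± 1.98 CPM, where the other anchor, Sdhc, was the highest. In complex I the ends of the range changed with the cell type. Ndufb9, an accessory subunit, was highest in WT MEP at 61.3 ± 0.578 CPM and the accessory subunit Ndufs4 lowest at 23.2 ± 2.697 CPM. In WT GMP and WT CMP the highest was the accessory subunit Ndufa3, at 54.8 ± 3.71 and 52.4 ± 3.87 CPM, and the lowest Ndufs1, the large iron-sulfur subunit, at 14.8 ± 1.16 and 17.3 ± 2.84 CPM. The assembly factors ran from 2.73 ± 0.496 CPM for Ndufaf5 to 12.2 ± 2.14 CPM for Ndufaf4 in WT MEP, below every subunit gene that had at least 1 CPM there.

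Compared with CMP, WT MEP held more RNA of nearly every oxidative phosphorylation gene. Of 92 genes tested, 78 rose and 3 fell (edgeR quasi-likelihood test, Benjamini-Hochberg adjusted p below 0.05 over all genes, as for all adjusted p-values unless another tool is named), while 46.7% of all 17563 genes were called, 21.2% higher and 25.5% lower. The median log2 change was 0.57 over the 92 genes and -0.05 over all genes. By complex, 32 of 36 genes rose in complex I, 4 of 4 in complex II, 9 of 9 in complex III, 10 of 17 in complex IV, 17 of 17 in complex V and 6 of 9 among the assembly factors, and the 3 that fell were all of complex IV. The sum of the erythroid markers, given above, was also higher in MEP than in CMP. Most of it came from Car1, with means of 4117 CPM in WT MEP and 719 CPM in WT CMP. Hbb-bt was not higher, with 12.6 and 12.8 CPM. The part of these markers in the differences was not tested.

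Within complex I, Ndufv1, the subunit that binds NADH, had 250.5, 246 and 246 CPM in WT MEP libraries, against 144, 142 and 151 CPM in WT CMP libraries. All 3 MEP libraries lay above all 3 CMP libraries, and the log2 change was 0.90 ± 0.07 SE, adjusted p = 4.42e-08. Ndufs1, the large iron-sulfur subunit next to it in the electron path, had 285, 307 and 331 CPM in WT MEP, against 188, 184 and 207 CPM in WT CMP. Its values also did not overlap (0.82 ± 0.07 SE, adjusted p = 5.84e-08). Among accessory subunits, Ndufb9 changed by 0.74 ± 0.07 SE, adjusted p = 1.16e-07, and Ndufa10 by 0.77 ± 0.08 SE, adjusted p = 4.35e-07. Ndufs7, an iron-sulfur subunit close to the coenzyme Q site, changed by 1.18 ± 0.20 SE, adjusted p = 0.000125, with 216, 208 and 254 CPM in WT MEP and 117, 108 and 105 CPM in WT CMP. The 4 complex I genes that did not pass were Ndufa3 (0.01), Ndufs4 (0.11), Ndufb11 (-0.11) and Ndufa6 (0.26).

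All 4 complex II genes, which encode succinate dehydrogenase, rose in MEP. Sdhd, a membrane anchor, had 165, 188 and 185 CPM in WT MEP libraries, against 95.9, 86.3 and 104 CPM in WT CMP libraries, which did not overlap (1.05 ± 0.10 SE, adjusted p = 3.05e-07). Sdhb, the iron-sulfur subunit, changed by 0.68 ± 0.08 SE, adjusted p = 1.57e-06, and the flavoprotein Sdha by 0.40 ± 0.06 SE, adjusted p = 2.59e-05. Complex III, the cytochrome bc1 complex, had the largest median change of the 6 groups, 0.97 against 0.58 in complex I and 0.49 in complex V. Cyc1, cytochrome c1, had 293, 324 and 361 CPM in WT MEP, against 154, 149 and 173 CPM in WT CMP. That was a log2 change of 1.18 ± 0.10 SE, adjusted p = 5.41e-08, with no overlap. The core protein Uqcrc1 changed by 0.97 ± 0.10 SE, adjusted p = 6.80e-07, with 681, 685 and 683 CPM in WT MEP and 382, 386 and 382 CPM in WT CMP. The small subunit Uqcrq changed by 1.496 ± 0.32 SE, adjusted p = 0.001, with 55.1, 59.8 and 112 CPM in WT MEP, against 31.5, 25.8 and 31.3 CPM in WT CMP. Its MEP libraries did not agree among themselves, mouse 3 being the high one, and KO mouse 3 was likewise the high one among 59.9, 57.4 and 120.3 CPM in KO MEP.

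In complex V, Atp5b had 2267, 2277 and 2473 CPM in WT MEP libraries, against 1452, 1455 and 1584 CPM in WT CMP libraries. The groups did not overlap, and its log2 change of 0.78 ± 0.06 SE, adjusted p = 3.10e-08, was the one with the smallest p of the 92 genes. Atp5a1, the alpha subunit, had 1756, 1714 and 1756 CPM in WT MEP, against 1298, 1282 and 1359 CPM in WT CMP (0.55 ± 0.06 SE, adjusted p = 5.70e-07). The largest log2 change in complex V was that of Atp5g1, 1 of 3 genes for the c subunit of the rotor ring, at 1.15 ± 0.09 SE, adjusted p = 4.04e-08. The 9 assembly and coupling factors had a median log2 change of 0.59. Ndufaf1 changed by 1.01 ± 0.13 SE, adjusted p = 9.63e-06, and Ndufaf7, a methyltransferase that modifies complex I, by 0.59 ± 0.09 SE, adjusted p = 5.97e-05, whereas Ndufaf2 (0.22), Ndufaf5 (-0.08) and Atp5s (0.21) did not pass.

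**Figure D2:**
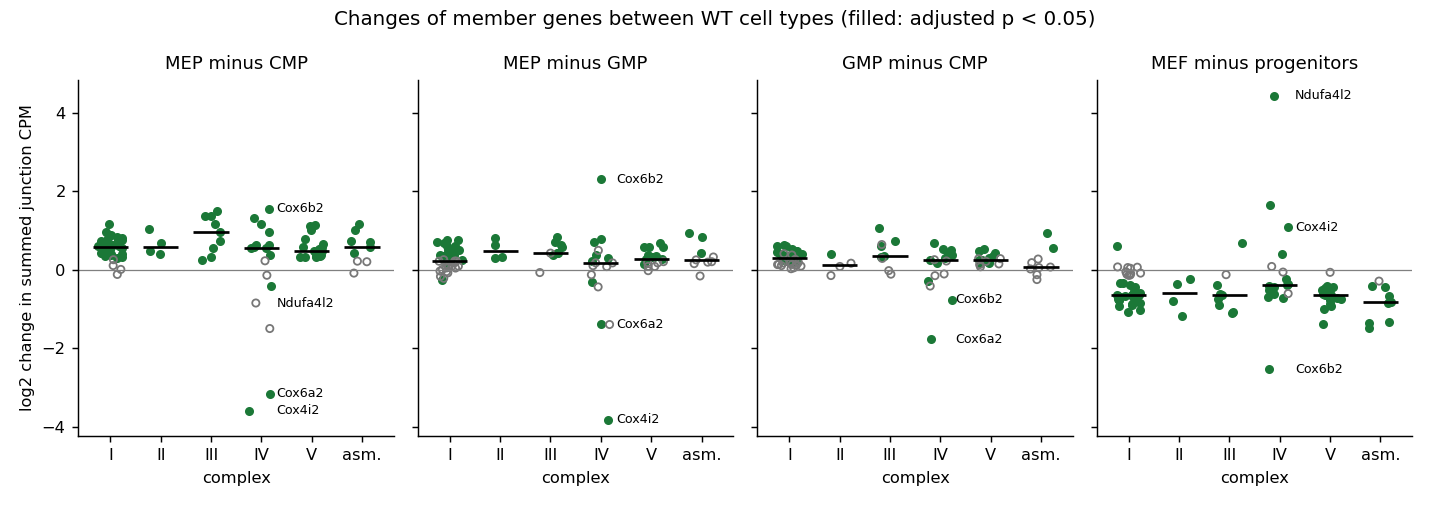
Log2 change of each gene (y axis, summed junction CPM) by complex (x axis, asm. for assembly and coupling factors) in 4 comparisons of WT cell types, with filled points for an adjusted edgeR p below 0.05 and black lines for the median of a complex. Most genes lie above 0 in MEP minus CMP, with a median of 0.97 in complex III, and most below 0 in MEF minus progenitors, while the isoform genes of complex IV lie furthest out.

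Of the 3 complex IV genes lower in MEP, 2 are low isoform genes and 1 is well expressed. Cox7a2l, a gene related to Cox7a1 and Cox7a2, had 142, 135 and 119.5 CPM in WT MEP libraries and 132, 148 and 152 CPM in WT GMP libraries, against 193, 182 and 200.4 CPM in WT CMP libraries. It lay below CMP without overlap in both cell types, with log2 changes of -0.40 ± 0.07 SE, adjusted p = 0.000233 in MEP and -0.28 ± 0.07 SE, adjusted p = 0.00994 in GMP. Cox6a2, the isoform typical of heart and skeletal muscle, had 0.412, 0.258 and 0.152 CPM in WT MEP and 0.818, 0.686 and 0.644 CPM in WT GMP, against 4.34, 1.59 and 2.11 CPM in WT CMP, with log2 changes of -3.15 ± 0.53 SE, adjusted p = 0.000108 in MEP and -1.76 ± 0.50 SE, adjusted p = 0.0156 in GMP. Cox4i2, an isoform known from lung, had 0.0457, 0.122 and 0.0911 CPM in WT MEP, against 1.34, 1.36 and 0.797 CPM in WT CMP (-3.58 ± 0.96 SE, adjusted p = 0.00526). These 2 genes rested on few counts. Among the rest of complex IV, Cox4i1 rose by 0.55 ± 0.07 SE, Cox5b by 0.98 ± 0.13 SE, Cox6a1 by 1.31 ± 0.18 SE and Cox8a by 1.17 ± 0.24 SE, while Ndufa4 (-0.14), Cox7c (0.23), Cox7a1 (-1.49) and Ndufa4l2 (-0.84) did not pass.

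GMP also held more of many of these RNAs than CMP. Here 48 of 92 genes rose and 3 fell, against 12.5% of all genes higher and 12.3% lower (24.8% called), and the median log2 change was 0.27 over the 92 genes and 0.00 over all genes. The 51 calls became 25 without the WT CMP library of mouse 1, 27 without that of mouse 2, 29 without the WT GMP library of mouse 1 and 32 without that of mouse 2. Uqcrc1 had 578, 558 and 447 CPM in WT GMP libraries, against 382, 386 and 382 CPM in WT CMP libraries, with no overlap (0.60 ± 0.10 SE, adjusted p = 0.000306). Next in order of p came Ndufb6, an accessory complex I subunit (0.60 ± 0.10 SE, adjusted p = 0.000338). Ndufb7, another accessory subunit, had 98.1, 93.4 and 77.9 CPM in WT GMP, against 65.6, 63.5 and 63.2 CPM in WT CMP (0.62 ± 0.11 SE, adjusted p = 0.00041). The accessory subunit Ndufb5 (0.40 ± 0.07 SE, adjusted p = 0.000491) and the synthase subunit Atp5l (0.36 ± 0.07 SE, adjusted p = 0.000798) followed. Cox4i1 (0.37 ± 0.07 SE), Cox7b (0.41 ± 0.09 SE), Cox6c (0.30 ± 0.06 SE), Atp5g1 (0.48 ± 0.09 SE) and Ndufv3 (0.38 ± 0.07 SE) completed the 10 with the smallest p. The 3 that fell were Cox7a2l and Cox6a2, as above, and Cox6b2. The call of Cox7a2l was lost without the WT GMP library of mouse 1 (adjusted p = 0.0629) and that of Cox6a2 without the WT CMP library of mouse 1 or the WT GMP library of mouse 2 or 3 (adjusted p = 0.0556 to 0.111).

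Between MEP and GMP, 48 of 92 genes were higher in MEP and 4 lower, against 21.1% and 24.8% of all genes (45.8% called), with medians of 0.27 and -0.03. Complex II stood higher in MEP in 4 of 4 genes, complex III in 7 of 9, complex V in 11 of 17, complex I in 17 of 36 and complex IV in 6 of 17. Sdhb had 299, 299 and 302 CPM in WT MEP libraries, against 178, 174 and 158 CPM in WT GMP libraries and 207, 208 and 204 CPM in WT CMP libraries. The GMP values lay below those of CMP in CPM, but that difference was not called (-0.14 ± 0.08 SE, adjusted p = 0.193). The MEP to GMP log2 change was 0.82 ± 0.08 SE, adjusted p = 1.34e-07. Ndufs1 changed by 0.76 ± 0.07 SE, adjusted p = 8.94e-08, Ndufb9 by 0.71 ± 0.07 SE, adjusted p = 1.34e-07, and the complex III core protein Uqcrc2 by 0.58 ± 0.06 SE, adjusted p = 4.62e-07. The log2 changes of the other genes among the 10 with the smallest p were 0.69 ± 0.07 SE for Ndufv1, 0.58 ± 0.06 SE for Atp5b, 0.84 ± 0.09 SE for Ndufaf7, 0.83 ± 0.10 SE for Cyc1 and 0.67 ± 0.09 SE for Atp5g1, besides Cox6b2, described with its paralogue. The 4 genes lower in MEP were Ndufa4 (-0.32 ± 0.06 SE, adjusted p = 0.000206), the accessory complex I subunit Ndufb11 (-0.25 ± 0.08 SE, adjusted p = 0.0187), Cox6a2 (-1.39 ± 0.50 SE, adjusted p = 0.0335) and Cox4i2 (-3.81 ± 0.96 SE, adjusted p = 0.00361). The call of Ndufb11 was lost without the WT GMP library of mouse 1 or the WT MEP library of mouse 3 (adjusted p = 0.0724 to 0.107), with no filter on low counts, from the best-covered intron, and with only the groups compared in the fit (adjusted p = 0.0625 to 0.0883), and that of Cox6a2, which had few counts, without the WT GMP library of mouse 1 or 2 or the WT MEP library of mouse 2 or 3 (adjusted p = 0.0622 to 0.133), with no filter and with only the groups compared (adjusted p = 0.0852 to 0.0973). Over the 3 cell types, 47 genes were higher than CMP in both MEP and GMP, and 23 of these were also higher in MEP than in GMP. The 3 comparisons share their libraries, so their values are set side by side only.

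Paralogues that encode the same subunit differed in which one was used. Cox6b2, known as the testis isoform of a complex IV subunit whose general form is Cox6b1, had 50.02, 55.2 and 46.1 CPM in KO MEP libraries, 9.95, 9.13 and 10.03 CPM in KO GMP libraries and 18.01, 17.7 and 17.5 CPM in KO CMP libraries. In WT libraries it had 49.5, 53.9 and 45.1 CPM in MEP, 8.24, 11.4 and 10.3 CPM in GMP and 16.4, 17.2 and 22.04 CPM in CMP. In both genotypes the 3 cell types did not overlap, with MEP highest and GMP lowest. Its log2 changes in WT were 2.31 ± 0.13 SE, adjusted p = 4.86e-10, between MEP and GMP, 1.56 ± 0.13 SE, adjusted p = 6.21e-08, between MEP and CMP, and -0.76 ± 0.13 SE, adjusted p = 0.000401, between GMP and CMP. On the per-intron scale, Cox6b2 made up 4.83 ± 0.854% of the pair in WT MEF, 26.6 ± 1.44% in WT MEP, 8.29 ± 1.25% in WT GMP and 15.5 ± 1.93% in WT CMP (SD, n = 3). The per-intron level of Cox6b1 itself was 87.2 ± 2.06 CPM in WT MEF, 136 ± 8.92 CPM in WT MEP, 110.2 ± 0.229 CPM in WT GMP and 101 ± 1.78 CPM in WT CMP.

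For the c subunit, whose mature protein is the same from each of 3 genes, Atp5g1 had 402, 436 and 424 CPM in WT MEP libraries, 274, 278 and 241 CPM in WT GMP libraries and 205, 193 and 227 CPM in WT CMP libraries. These did not overlap, in the order MEP, GMP, CMP. It supplied 23.9 ± 0.596% of the per-intron level of the 3 genes in WT MEF, 35.8 ± 1.03% in WT MEP, 32.1 ± 1.87% in WT GMP and 29.9 ± 1.796% in WT CMP. Atp5g3 rose by 1.005 ± 0.11 SE in MEP and Atp5g2 by 0.35 ± 0.09 SE, both against CMP. The other tissue isoforms were nearly silent in every cell type. Cox4i2, Cox6a2, Cox7a1 and Ndufa4l2 reached group means of at most 0.638, 1.39, 0.97 and 1.52 CPM per intron in the WT groups of MEF, MEP, GMP and CMP, against 125 CPM for Cox4i1 and 62.5 CPM for Cox6a1 in WT CMP, and 41.3 CPM for Cox7a2 and 81.8 CPM for Ndufa4 in WT MEF. The muscle isoform Cox8b and the testis isoform Cox8c stayed at or below 0.0608 CPM in these groups, against 107 ± 27.5 CPM for the general form Cox8a in WT MEP. Cox7b2, a testis relative of Cox7b, had 0 spliced counts at its best-covered intron in the 12 WT libraries of these groups, against 102 ± 10.2 CPM for Cox7b in WT MEP. Cox7a2l, the third Cox7a gene, had 33.2 ± 3.23 CPM in WT MEP.

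**Figure D3:**
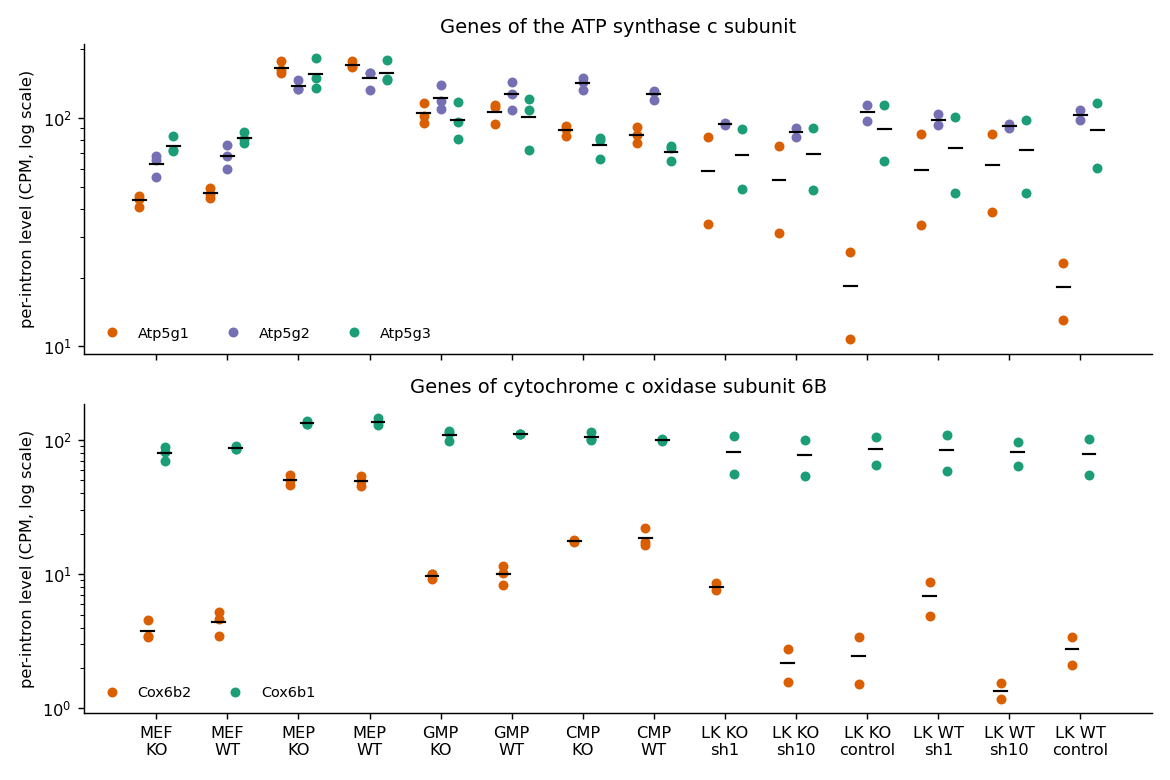
Per-intron level (y axis, CPM, log scale) of the 3 c subunit genes (above) and of Cox6b2 and Cox6b1 (below) by group (x axis, LK for Lin-Kit+ cells), with points for libraries and lines for group means. Cox6b2 is highest in MEP and lowest of the progenitors in GMP in both genotypes, and Atp5g1 has group means of 18.3 and 18.1 CPM with the control hairpin in KO and WT Lin-Kit+ cells, below the 4 groups with a Zrsr1 hairpin.

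The start regions of these 2 isoform groups are shown because their members, which encode interchangeable subunits, differed between cell types. The windows run from 250 bases before to 50 bases after the RefSeq gene start on the GRCm38.p6 assembly, read 5′ to 3′ on the gene's strand, and capitals mark the motif matches described after them. Cox6b2 lies at chr7:4753045-4753344, minus strand, Cox6b1 at chr7:30626065-30626364, minus strand, Atp5g1 at chr11:96075582-96075881, minus strand, Atp5g2 at chr15:102670998-102671297, minus strand and Atp5g3 at chr2:73911277-73911576, minus strand.
Cox6b2: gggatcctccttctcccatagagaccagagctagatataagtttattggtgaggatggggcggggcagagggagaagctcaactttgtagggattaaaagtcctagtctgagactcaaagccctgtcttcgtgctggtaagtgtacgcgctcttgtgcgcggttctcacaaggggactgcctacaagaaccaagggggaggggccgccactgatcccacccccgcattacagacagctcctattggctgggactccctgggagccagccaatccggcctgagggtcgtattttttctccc
Cox6b1: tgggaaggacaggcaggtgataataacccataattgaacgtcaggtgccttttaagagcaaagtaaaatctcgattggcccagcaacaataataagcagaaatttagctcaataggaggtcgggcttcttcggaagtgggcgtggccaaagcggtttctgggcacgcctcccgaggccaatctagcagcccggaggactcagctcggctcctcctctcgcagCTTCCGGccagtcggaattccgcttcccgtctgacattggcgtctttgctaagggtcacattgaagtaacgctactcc
Atp5g1: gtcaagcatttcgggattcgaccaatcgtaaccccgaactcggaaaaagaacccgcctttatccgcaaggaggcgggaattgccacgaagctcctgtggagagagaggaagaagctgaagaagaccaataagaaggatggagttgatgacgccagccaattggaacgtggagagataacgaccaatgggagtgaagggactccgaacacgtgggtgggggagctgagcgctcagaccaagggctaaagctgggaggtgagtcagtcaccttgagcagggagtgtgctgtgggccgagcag
Atp5g2: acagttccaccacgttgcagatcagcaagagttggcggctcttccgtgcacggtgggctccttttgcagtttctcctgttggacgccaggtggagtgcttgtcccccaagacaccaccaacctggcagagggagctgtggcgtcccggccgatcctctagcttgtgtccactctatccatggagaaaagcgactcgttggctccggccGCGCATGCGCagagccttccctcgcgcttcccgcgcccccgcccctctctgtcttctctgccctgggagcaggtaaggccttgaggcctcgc
Atp5g3: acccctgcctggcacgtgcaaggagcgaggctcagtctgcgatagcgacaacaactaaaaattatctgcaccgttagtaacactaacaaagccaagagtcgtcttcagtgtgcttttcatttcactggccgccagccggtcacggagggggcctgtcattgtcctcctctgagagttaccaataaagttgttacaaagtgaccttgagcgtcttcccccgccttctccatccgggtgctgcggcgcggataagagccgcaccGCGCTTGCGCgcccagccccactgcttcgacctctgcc
The 3 motifs of factors known from respiratory genes were searched as letters on both strands: GCGCA, any 1 base and GCGC in a row for NRF1, CCGGAAG for GABPA and AAGATGGC for YY1. Of the 5 windows, Atp5g2 held an NRF1 match that reads on both strands, Atp5g3 an NRF1 match and Cox6b1 a GABPA match on the antisense strand, and none of the 3 motifs was found in those of Atp5g1 and Cox6b2. In all, 79 RefSeq windows matched 74 of the 95 genes, and 20 of them (25.3%) held the NRF1 letters, 18 (22.8%) the GABPA letters and 10 (12.7%) the YY1 letters. Over all 32851 windows the shares were 4.603%, 8.86% and 2.75% in the same order. A match is a description of the letters only.

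Fibroblasts held less of most oxidative phosphorylation RNAs than the progenitors. With the 3 progenitor libraries of each WT mouse summed, so that 3 MEF stood against 3 mice, 70 of 92 genes were lower in MEF and 6 higher, against 33.7% and 34.6% of all 18626 genes (68.3% called). The median log2 change was -0.62 over the 92 genes and -0.03 over all genes. Scaling by DESeq2 size factors moved these to -0.52 and 0.16, and the median of the 92 genes minus that of all genes was -0.59 and -0.69 in the same order. Lower calls came to 25 of 36 genes in complex I, 4 of 4 in complex II, 7 of 9 in complex III, 10 of 17 in complex IV, 16 of 17 in complex V and 8 of 9 among the assembly factors. Macrophage markers summed to 276 to 2542 CPM in WT MEF, and to 2.87 to 3.84, 159 to 189 and 115 to 204 CPM in WT MEP, GMP and CMP, and their part in the result was not tested. Tissue, cell type, embryonic origin and sorting from bone marrow differ together between MEF and progenitors and cannot be told apart.

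Atp5g1 had 116, 105 and 110 CPM in WT MEF libraries, against 293, 304 and 304 CPM in the summed WT progenitors of the 3 mice, without overlap (-1.37 ± 0.06 SE, adjusted p = 7.11e-06). Uqcrc2 had 242, 231 and 229 CPM in WT MEF, against 505, 518 and 533 CPM in the progenitors (-1.07 ± 0.06 SE, adjusted p = 1.54e-05). Cox6b2 had 4.66, 5.19 and 3.47 CPM in WT MEF, against 25.8, 28.4 and 27.3 CPM (-2.53 ± 0.18 SE, adjusted p = 3.22e-05). Each of these genes lay below every single WT progenitor library as well. The others of the 10 lower genes with the smallest p were Ndufs7 (-1.01 ± 0.06 SE), Sdhd (-1.17 ± 0.08 SE), Ndufb5 (-0.90 ± 0.06 SE), Ndufv1 (-0.92 ± 0.06 SE), Cyc1 (-1.09 ± 0.08 SE), the assembly factor Ndufaf6 (-1.35 ± 0.10 SE) and Atp5g2 (-0.99 ± 0.08 SE). Of the 6 genes higher in MEF, 3 were well expressed. Ndufa13, an accessory complex I subunit, had 89.6, 90.3 and 92.9 CPM in WT MEF, against 61.5, 62.3 and 64.6 CPM in the summed progenitors, and exceeded every single progenitor library (0.61 ± 0.06 SE, adjusted p = 0.000204). Uqcrq changed by 0.68 ± 0.12 SE, adjusted p = 0.00225, and Cox6a1 by 0.40 ± 0.07 SE, adjusted p = 0.00169, but WT MEF lay below the MEP library of mouse 3 for Uqcrq and below all 3 MEP libraries for Cox6a1. Cox6a1 had 168, 171 and 172 CPM in WT MEF and 194, 179 and 225 CPM in WT MEP. The other 3 were the low isoform genes Ndufa4l2, a relative of Ndufa4 known to be induced by low oxygen (4.43 ± 0.86 SE, adjusted p = 0.00345), Cox7a1 (1.67 ± 0.44 SE, adjusted p = 0.0134) and Cox4i2 (1.09 ± 0.30 SE, adjusted p = 0.0167). From the best-covered intron alone, Cox6a1 was not called (0.12, adjusted p = 0.232), and neither was Cox7a1 without WT MEF 5 (adjusted p = 0.0506) or Cox4i2 without WT MEF 6 (adjusted p = 0.0574).

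Other genes of mitochondrial energy metabolism were counted in the same way between WT MEP and WT CMP. For the mitochondrial ribosome, which translates the subunits encoded in mitochondrial DNA, 71 rose and 1 fell of 77 tested (median log2 change 0.71). In the tricarboxylic acid cycle, which feeds complexes I and II, 16 rose and 1 fell of 18 tested (median log2 change 0.59). Citrate synthase (Cs) changed by 1.04 ± 0.07 SE, adjusted p = 7.55e-09, and Idh3a of the NAD-dependent isocitrate dehydrogenase by 1.05 ± 0.07 SE, adjusted p = 5.72e-09. The gene that fell there was Idh2, the NADP-dependent enzyme, at -0.99 ± 0.07 SE, adjusted p = 1.32e-08. Of the electron carriers, coenzyme Q synthesis genes and ADP/ATP carriers, 17 rose and 1 fell of 23 tested (median log2 change 0.59), with Coq7 of coenzyme Q synthesis at 1.12 ± 0.11 SE, adjusted p = 3.74e-07. Of the assembly factors without an Ndufaf symbol, 22 rose and 0 fell of 38 tested (median log2 change 0.42), and Cox17, the copper chaperone of complex IV, changed by 1.44 ± 0.13 SE, adjusted p = 1.58e-07. Of the regulators and genes of mitochondrial DNA expression, 9 rose and 1 fell of 20 tested (median log2 change 0.24): the coactivator Pprc1 changed by 0.73 ± 0.07 SE, adjusted p = 1.80e-07, the mitochondrial DNA packaging factor Tfam by 0.44 ± 0.08 SE, adjusted p = 0.000356, and the one that fell was Gabpb1 (-0.87 ± 0.14 SE, adjusted p = 6.78e-05). In glycolysis, the cytosolic route, 6 rose and 11 fell of 21 tested (median log2 change -0.59), with the hexokinase Hk3 at -6.18 ± 0.40 SE, adjusted p = 2.81e-09, Pkm at -5.59 ± 0.29 SE, adjusted p = 3.46e-10, and Pfkm at 1.60 ± 0.09 SE, adjusted p = 1.03e-09. Over all genes 46.7% were called, as above.

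Between WT GMP and WT CMP, glycolysis genes mostly rose, with 15 higher and 2 lower of 21 (all genes: 12.5% higher, 12.3% lower), while the tricarboxylic acid cycle had 11 higher and 0 lower of 18, and the mitochondrial ribosome 25 and 1 of 77. Ldhb, a lactate dehydrogenase subunit, changed by 2.01 ± 0.17 SE, adjusted p = 2.34e-07, and Cycs, cytochrome c, by 0.63 ± 0.10 SE, adjusted p = 0.00019. Between WT MEF and the WT progenitors the mitochondrial lists were mostly lower in MEF: 66 of 77 mitochondrial ribosome genes, 14 of 18 cycle genes, 20 of 23 carrier genes and 16 of 20 regulators fell, and 2, 1, 2 and 1 rose in the same order, where 33.7% of all genes fell and 34.6% rose. Slc25a5, an ADP/ATP carrier, changed by -1.57 ± 0.07 SE, adjusted p = 5.20e-06, Cycs by -1.35 ± 0.10 SE, adjusted p = 3.28e-05, and Tfam by -1.36 ± 0.09 SE, adjusted p = 2.23e-05. In glycolysis 9 were higher and 7 lower of 21. Between KO and WT, 0 genes of the 6 lists were called in MEP, GMP, CMP or MEF.

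Between KO and WT, no oxidative phosphorylation gene passed the edgeR threshold in MEP, GMP, CMP or MEF. In Lin-Kit+ cells none did either, but with 2 libraries a group and no term for the experiment that test was too weak for its 0 to say anything. In simulated counts over all genes, edgeR found 22.5% of 2-fold changes between KO and WT in MEF and 0% in Lin-Kit+ cells. In the progenitor fit, simulated between WT MEP and WT CMP, it found 44%. These percentages cover all genes, and the share found among the oxidative phosphorylation genes alone was not tested. The 0 calls do not show that no gene changed. In CMP, GMP, MEP and MEF, 0 of 92 genes were called between KO and WT, where 0.0228%, 0.0171%, 0.0456% and 0% of all genes were, and 0 of 93 in control-hairpin Lin-Kit+ cells (0%). With the experiment as a block, 0 of 93 were called in Lin-Kit+ cells as well, against 0.00561% of all genes. Simulated with that block between Zrsr1 hairpins and control hairpin in WT cells, edgeR found 53% of 2-fold changes over all genes. The fit with the block was not simulated between KO and WT. At an unadjusted p below 0.05 there were 5 of 92 genes in CMP, all lower in KO, where 5.92% of all genes passed. There were 0 in GMP, MEP, MEF and Lin-Kit+ cells, where 2.55%, 4.41%, 1.58% and 0.886% of all genes passed. DESeq2 called 1 gene in CMP and 0 in the others, where it called 0.223% of all genes in CMP, 0.1% in GMP, 0.432% in MEP, 0.0751% in MEF and 0.159% in Lin-Kit+ cells. The median log2 change of the 92 genes was -0.02 in MEP, -0.01 in GMP, -0.02 in CMP and -0.07 in MEF. The median SE of a gene was 0.10 in MEP, 0.10 in GMP, 0.10 in CMP, 0.09 in MEF and 0.26 in Lin-Kit+ cells. Differences of the KO effect between progenitor types were tested as well, and edgeR called 0 of 92 genes there (0.0114% of all genes between MEP and CMP, 0% between GMP and CMP and 0.0114% between MEP and GMP), with 4 genes at an unadjusted p below 0.05 between MEP and CMP (Cox7c, Ndufa4l2, Atp5l and Ndufab1), 2 between GMP and CMP (Cox7c and Uqcrc2) and 0 between MEP and GMP. Of all genes, 5.89%, 4.88% and 3.45% passed at that level in the same order.

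The gene that DESeq2 called in CMP was Cox7c, a small subunit of complex IV. It had 16.8, 18.9 and 17.4 CPM in KO CMP libraries, against 24.4, 24.2 and 24.04 CPM in WT CMP libraries. All 3 KO values lay below all 3 WT values, with a log2 change of -0.46 ± 0.10 SE, an unadjusted edgeR p of 0.000234 and an adjusted p of 0.456, against an adjusted DESeq2 p of 0.00785. In MEP it had 26.1, 27.2 and 28.6 CPM in KO and 26.4, 25.5 and 25.7 CPM in WT, and in GMP 19.2, 21.99 and 20.5 CPM in KO and 21.8, 16.6 and 21.4 CPM in WT, which overlapped in both. The difference of the KO effect from CMP was 0.52 ± 0.14 SE, adjusted p = 0.673 for MEP and 0.51 ± 0.14 SE, adjusted p = 0.957 for GMP. The same direction without overlap in CMP was seen for the synthase subunit Atp5l, with 77.01, 86.8 and 81.2 CPM in KO and 93.2, 91.2 and 91.4 CPM in WT (-0.18 ± 0.07 SE, adjusted p = 0.819), and for the accessory complex I subunit Ndufs5 (-0.22 ± 0.09 SE, adjusted p = 0.819). The others of the 5 were Ndufab1, the mitochondrial acyl carrier protein that is also a complex I subunit (-0.31 ± 0.12 SE, adjusted p = 0.819), and the low isoform gene Ndufa4l2, with 0, 0.0594 and 0 CPM in KO and 0.251, 0.464 and 0.0957 CPM in WT (-3.61 ± 1.51 SE, adjusted p = 0.819). In CMP, 8 of the 92 genes lay above and 10 below WT without overlap, against 6.24% and 5.8% of all genes. Above WT, the log2 changes furthest from 0 were those of Ndufa2 (0.23), Atp5d (0.22), Ndufa13 (0.20), Ndufa12 (0.19) and Atp5g2 (0.14), none called.

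In MEF, 12 of the 92 genes lay below WT without overlap and 0 above, against 3.12% and 2.32% of all genes. Among them, Atp5mpl, a small proteolipid of the synthase, had 123, 122 and 129.6 CPM in KO MEF, against 139, 135 and 143 CPM in WT MEF (-0.14 ± 0.08 SE, adjusted p = 1). Cox4i1 had 269, 258 and 297 CPM in KO MEF, against 302, 301 and 304 CPM in WT MEF (-0.12 ± 0.09 SE, adjusted p = 1). The log2 changes of Atp5l (-0.13), Uqcrb (-0.13) and Ndufs5 (-0.13) were of the same size and also not called. In MEP the 3 genes below WT without overlap were Atp5d, Uqcrc1 and Ndufv1, and Uqcrc1 had 612, 629 and 671 CPM in KO MEP, against 681, 685 and 683 CPM in WT MEP (-0.13 ± 0.10 SE, adjusted p = 1). These stand against 2.57% of all genes below and, with 0 members above, 3.93% above. In GMP, Uqcrh (0.06) and Ndufa4 (0.05) lay above WT, and Cox4i2 (-0.53) was among those below it, against 3.29% and 3.62% of all genes. In control-hairpin Lin-Kit+ cells, 74 of 93 log2 changes were above 0, with a median of 0.11 against 0.00 over all genes. The assembly factor Ndufaf5 was above WT in both experiments, with 18.3 and 19.8 CPM in KO and 16.9 and 14.9 CPM in WT (0.34 ± 0.26 SE, adjusted p = 1). Ndufb8 (0.21) and Ndufs7 (0.19) also lay above WT in both libraries and Ndufaf2 (-0.27) below, against 5.64% and 11.7% of all genes. Between KO and WT with the Zrsr1 hairpins, edgeR called 0 of 93 genes without the block (0% of all genes), with 0 genes at an unadjusted p below 0.05.

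**Figure D4:**
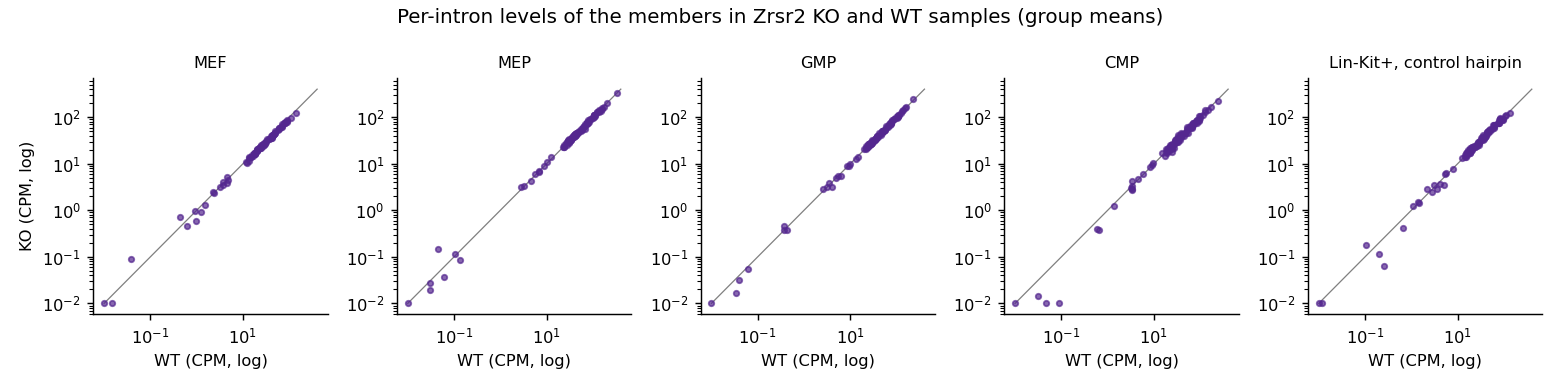
Group mean per-intron level of each gene in KO (y axis, CPM, log scale) against WT (x axis, CPM, log scale) in MEF, MEP, GMP, CMP and Lin-Kit+ cells with the control hairpin, with a grey line where both are equal and values under 0.01 CPM drawn at 0.01. The genes lie along the line in all 5 panels, and scatter is wider below 1 CPM.

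With the Zrsr1 hairpins, 1 oxidative phosphorylation gene, Atp5g1, was higher than with the control hairpin in both genotypes and both experiments. Atp5g1 had 186 and 101 CPM with sh1 and 166 and 87.3 CPM with sh10 in KO cells, against 55.6 and 32.8 CPM with the control hairpin, in experiments 1 and 2 of each pair. In WT cells it had 190.2 and 97.9 CPM with sh1 and 182 and 111 CPM with sh10, against 50.96 and 39.2 CPM with the control hairpin. All 8 libraries with a Zrsr1 hairpin lay above all 4 control libraries, and experiment 1 lay above experiment 2 in every group. The log2 change was 1.68 ± 0.34 SE, adjusted p = 0.295, in KO and 1.78 ± 0.34 SE, adjusted p = 0.24, in WT without the experiment as a term, where 0 of 93 genes were called (0% of all genes in KO, 0% in WT). At an unadjusted p below 0.05 there were 4 genes in KO (Atp5g1, Atp5o in both its entries, and Ndufa12) and 3 in WT (Atp5g1, Uqcrq and Ndufs3), where 7.21% and 7.43% of all genes passed. DESeq2 called 1 in each, Atp5g1, with 2.32% of all genes in KO and 2.22% in WT. With the experiment as a block it was 1.68 ± 0.12 SE, adjusted p = 0.00027, in KO and 1.74 ± 0.12 SE, adjusted p = 0.000352, in WT, and 9% and 8.75% of all genes were called. The hairpin effect was not shown to differ between KO and WT, the difference being -0.10 ± 0.44 SE, adjusted p = 1.

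Each hairpin alone gave the same call with the block: sh1 changed Atp5g1 by 1.76 ± 0.14 SE in KO and 1.74 ± 0.14 SE in WT, and sh10 by 1.59 ± 0.14 SE in KO and 1.74 ± 0.14 SE in WT. The difference between sh1 and sh10 was 0.08 ± 0.09 SE, adjusted p = 0.658. All 3 listed introns of Atp5g1 carried the change: intron 2 had 37.6 to 62.03 CPM in the 8 Zrsr1 hairpin libraries, against 12.7 to 17.03 CPM in the 4 control libraries. The other c subunit genes, whose start regions are printed above, were not called: Atp5g3 had 248 and 174 CPM with sh1 and 265 and 164 CPM with sh10 in KO cells, against 316 and 229 CPM with the control hairpin (-0.28 ± 0.09 SE, adjusted p = 0.0783, with the block). For Atp5g2 the log2 change with the block was -0.15 ± 0.11 SE, adjusted p = 0.485, in KO and 0.02 ± 0.11 SE, adjusted p = 0.953, in WT. Atp5g1 made up 25.3 ± 8.43% (sh1) and 24.4 ± 7.23% (sh10) of the per-intron level of the 3 genes in KO cells, against 8.28 ± 3.72% with the control hairpin (SD, n = 2). With the control hairpin it had the lowest per-intron level of the complex V genes in both genotypes, 18.3 CPM in KO and 18.1 CPM in WT.

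With the block, Atp5o, the stalk subunit that confers oligomycin sensitivity, fell in both genotypes (-0.49 ± 0.08 SE, adjusted p = 0.00783, in KO and -0.36 ± 0.08 SE, adjusted p = 0.0264, in WT). It had 198 and 137 CPM with sh1 and 212 and 132 CPM with sh10 in KO cells, against 283 and 216 CPM with the control hairpin, and within each experiment both hairpins lay below the control. A second gene entry of the same name, which shares an intron with it, fell in KO (-0.48 ± 0.10 SE, adjusted p = 0.0207), as did Ndufa12, an accessory complex I subunit (-0.45 ± 0.11 SE, adjusted p = 0.0328). Taken alone in KO, sh10 gave the call of Ndufa12 (-0.56, adjusted p = 0.0297) and sh1 did not (-0.35, adjusted p = 0.16). Atp5o in WT was called with sh10 (-0.37, adjusted p = 0.0412) but not with sh1 (-0.36, adjusted p = 0.0641). Sdha was called with sh1 in KO (-0.38, adjusted p = 0.048) and WT (-0.39, adjusted p = 0.049), but not with sh10. Cell-type markers also moved with the hairpins. The 6 macrophage genes summed to 2080.1 to 3229 CPM (sh1) and 1866 to 3119 CPM (sh10) in KO cells, against 1170 to 1396 CPM with the control hairpin, and 5 of 6 rose in each genotype with the block. The 7 granulocyte-monocyte genes summed to 4542 to 6133 and 5329.7 to 6181 CPM in the same KO groups, against 9852 to 10128 CPM, and 5 of 7 fell in KO and 2 of 7 in WT. Of 8 mature neutrophil genes, 2 rose in KO and 3 in WT, and of 8 stem and progenitor genes 2 fell in KO and 3 in WT, all with the block. Of 6 mast cell and basophil genes, 2 rose and 1 fell in KO, and 1 rose and 1 fell in WT. Of 8 erythroid genes, 0 were called in KO and 1 fell in WT. These counts pool the 2 hairpins, which were not alike. In KO cells S100a8 had means of 1255 CPM with sh1, 3239 CPM with sh10 and 1212 CPM with the control, while Mmp9 had 169, 285 and 90.9 CPM. In WT cells the macrophage genes summed to 1510.1 to 3203 CPM (sh1) and 1506 to 2063 CPM (sh10), against 926 to 1514 CPM with the control hairpin. Their part in the Atp5g1 difference was not tested.

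Intron retention was read as the percent MSI in the authors' tables, which is the share of the boundary reads in their sum with 2 times the spliced reads. Of 337 introns of these genes with at least 100 reads in every library, 194 had a mean MSI under 1%, 126 between 1% and 5% and 17 of 5% or more, of which 4 reached 10%. In KO the median MSI of these introns was 0.532 ± 0.071% in MEF, 0.823 ± 0.113% in MEP, 0.867 ± 0.211% in GMP and 1.101 ± 0.0508% in CMP (SD of 3 library medians). In WT it was 0.537 ± 0.0463% in MEF, 0.772 ± 0.0934% in MEP, 0.926 ± 0.0573% in GMP and 1.02 ± 0.0492% in CMP. Over all 29067 introns with such coverage the WT medians were 0.994%, 1.35%, 1.45% and 1.47% in the same order, so that the median of the oxidative phosphorylation genes lay below that of all genes in each. No U12-type intron was found among those that could be read. Both ends were readable from GENCODE M21 transcripts that keep them as exon for 49 of 416 introns and 0 of these were U12-type, and of 100 introns with readable first 8 bases 0 came within 1 mismatch of the U12 donor site.

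Boundary reads of the most retained introns were often uneven between the ends. Intron 2 of Ndufaf3, a complex I assembly factor, had an MSI of 10.2 ± 0.649% in KO MEF, 13.3 ± 2.401% in KO MEP, 13.3 ± 2.37% in KO GMP and 17.7 ± 4.48% in KO CMP (SD, n = 3). The WT values were 14.7 ± 1.31% in MEF, 13.9 ± 0.632% in MEP, 15.8 ± 1.19% in GMP and 16.3 ± 3.76% in CMP, and over all 36 libraries it ranged between 4.63% and 28.6%. It held 1632 reads over its 5′ and 656 over its 3′ boundary in all. Its sequence is shown because it was the most retained intron of these genes that an annotated transcript keeps whole as exon. It spans chr9:108566408-108566555 on the minus strand (148 bases, mm10, from a GENCODE M21 transcript), and capitals mark its first 6 and last 3 bases, a GT-AG intron.
Ndufaf3 intron 2: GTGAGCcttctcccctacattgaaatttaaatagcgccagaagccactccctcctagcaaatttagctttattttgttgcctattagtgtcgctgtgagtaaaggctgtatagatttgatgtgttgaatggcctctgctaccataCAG
The highest mean MSI over the 36 libraries, 23.7% for intron 1 of Atp5g2, rested on 21989 reads at the 3′ boundary and 100 at the 5′ boundary. Intron 1 of Cox4i1 was as uneven (17852 and 242 reads, mean MSI 12.6%), and intron 2 of Ndufa7 leaned the other way (712 reads at the 3′ and 9382 at the 5′ boundary, mean MSI 8.04%). Boundary reads at 1 end alone do not measure the whole intron. The others of the 7 most retained introns were Cyc1 intron 1 (10.4%) and Ndufv1 introns 3 (8.899%) and 4 (8.07%). Further down lay Atp5e, the epsilon subunit of the synthase, whose intron 1 had 12436 reads at the 3′ and 12394 at the 5′ boundary (mean MSI 7.04%).

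**Figure D5:**
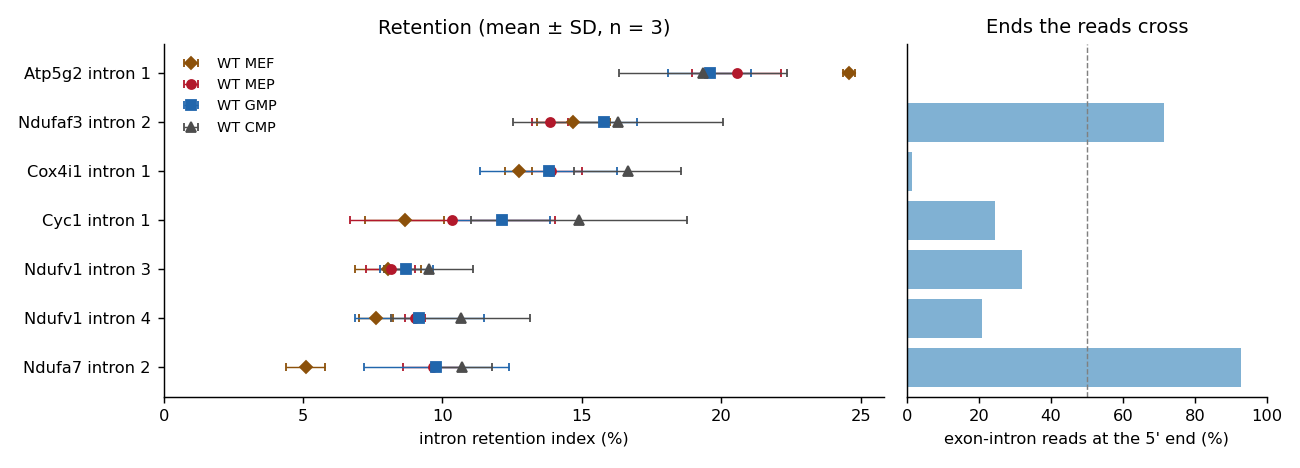
The 7 most retained introns with at least 100 reads in every library. Left, MSI (x axis, percent, mean ± SD of 3 libraries) in the 4 WT cell types, and right, the percent of boundary reads at the 5′ end over all libraries (x axis), with a dashed line at 50%. Atp5g2 intron 1 is highest at 24.6% in WT MEF, and nearly all of its boundary reads lie at the 3′ end.

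No intron of these genes passed the threshold in any comparison (edgeR diffSpliceDGE on exon-intron against spliced reads, adjusted over all introns tested). In progenitors 366 of their introns, of 62446 in all, were tested, in MEF 219 of 32573 and in Lin-Kit+ cells 289 of 46630. With 2 libraries a group, the Lin-Kit+ test between KO and WT was too weak for its 0 to say anything. In simulated counts over all introns, it found 0.5% of 4-fold rises in boundary reads. The same test found 30% of them between KO and WT in CMP and 71% in MEF, the latter with 22 false calls. Between KO and WT, 0.0048% of all introns were called in MEP, 0.00641% in GMP, 0.0032% in CMP and 0% in MEF, and 6, 4, 20 and 3 of their introns had an unadjusted p below 0.05 in the same order. Of all introns, 3.04%, 1.97%, 4.67% and 1.77% did. The alternative limma test on the log2 ratio also called 0 of their introns in each of these comparisons, and 0.0176%, 0.0048%, 0.0112% and 0% of all introns in that order. The smallest p between KO and WT was in CMP for intron 3 of Ndufa5, an accessory complex I subunit, with an MSI of 1.304 ± 0.692% in KO CMP and 0.126 ± 0.134% in WT CMP (SD, n = 3; adjusted p = 0.115), on 0 to 35 exon-intron reads a library. Between cell types, 0.293% of all introns were called between WT MEP and WT CMP, 0.285% between WT MEP and WT GMP and 0.0528% between WT GMP and WT CMP, and limma called 0.315%, 0.428% and 0.0593%, with 0 introns of these genes by either test.

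Retention of these introns leaned lower in MEP than in CMP. Of the 366 introns, 33.1% had a higher exon-intron to spliced ratio in WT MEP, against 45.3% of all introns, and the median log2 ratio difference was -0.29 against -0.08. An unadjusted p below 0.05 was reached by 13.9% of them, against 8.16% of all, but by 9.02% against 9.92% with limma. The smallest p in the edgeR test was that of Atp5d intron 2 (adjusted p = 0.0914). Its MSI was 4.99 ± 0.854% in WT MEP and 10.99 ± 1.64% in WT CMP (SD, n = 3). The log2 ratio difference of -1.24 ± 0.33 SE came from the limma fit, not from the edgeR test. This intron lies at chr10:80142607-80143831 (mm10). The spliced RNA of Atp5d rose over the same comparison by 1.13 ± 0.18 SE, adjusted p = 7.29e-05. Both values use the spliced reads of that intron, so they are not independent. Ndufs7 intron 4 (3.64 ± 0.99% in WT MEP, 7.83 ± 2.08% in WT CMP, adjusted p = 0.116) and Cox5b intron 1 (1.6 ± 0.777% in WT MEP, 4.14 ± 0.658% in WT CMP, adjusted p = 0.118) followed.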

How the data were processed

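PolyA RNA of 36 libraries was sequenced. Per the file headers, the authors deposited for each library, and for the same 219945 introns, a count of reads spliced across the intron, counts of reads over its 2 exon-intron boundaries, the covered fraction of the intron, and MSI, a percent. The deposited MSI percent was tested on the files and equals 100 times the boundary counts divided by those counts plus 2 times the spliced count. The covered fraction that the authors deposited was not used. Per the submitters' processing notes, the reads were placed on the mm10 build. The sources used here name no aligner or read counter and do not say whether strand was used: these are not given. A processed pseudogene or an overlapping gene could therefore share reads with its partner.

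Spliced counts were summed over the introns of each gene of GENCODE M21 and tested with edgeR 4.0.16 (TMM scaling, filterByExpr, glmQLFit and glmQLFTest) in R 4.3.3, over all genes passing the filter, in 1 fit each for progenitors, MEF and Lin-Kit+ cells and 1 for MEF against the summed progenitors of each mouse. Intron retention was tested with edgeR's diffSpliceDGE. An adjusted p below 0.05 was called. Alternatives were another scaling, no filter, DESeq2 1.42.0, limma 3.58.1 for introns with a pseudocount of 0.5, the best-covered intron in place of the sum, fits on fewer groups, a replicate block, and each library left out. The edgeR tests of genes and introns were also tried on simulated counts with known changes, for 1 comparison in each fit. Genes of Lin-Kit+ cells were also simulated with the block. DESeq2, limma and the other comparisons were not simulated. The members, lists and tests were chosen with earlier results of these data known. The fits of sh1 and sh10 alone and of sh1 against sh10 were added after the data were seen. The text names at most 10 called genes per direction and comparison by smallest p, the highest and lowest gene per complex, the tissue isoforms, where nothing was called at most 5 genes per direction whose libraries did not overlap, and the introns with the smallest p or the highest retention. The 18 progenitor libraries share 1 estimate of the spread. The values of 1 gene are not reported here. In Lin-Kit+ cells the duplicates are the 2 experiments. Without a block the p-values include the spread between experiments, and with the experiment as a block they do not.

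As a pairing check, deviations from group means were correlated between samples of the same number. They ran from 0.0423 to 0.0668 between KO and WT in CMP, 0.00668 to 0.124 in GMP, 0.0722 to 0.205 in MEP and -0.16 to 0.564 in MEF, so KO and WT numbers were not taken as pairs. Progenitor types of 1 mouse (0.0365 to 0.103) and Lin-Kit+ cells of 1 experiment (0.474 to 0.555) are paired by the labels.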

Additional observations from a re-analysis of the deposited data

How the results depend on the processing

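Of 312 recomputed counts of called genes or introns, 297 stayed within 1.5 times the reported count or at 0, 15 moved and none changed direction. DESeq2 called 1 gene (Cox7c) between KO and WT CMP, where edgeR called 0. With the Zrsr1 hairpins, edgeR called 0 genes in either genotype. In KO cells the count was 1 with no filter on low counts, 1 with DESeq2, 4 with the replicate block (experiment), 4 for sh1 alone and 6 for sh10 alone with that block, and in WT cells it was 1, 1, 2, 4 and 3 in the same order. The cause was not tested. Of all genes, DESeq2 called 2.32% in KO and 2.22% in WT, and edgeR with the block 9% and 8.75%. The shares of all genes with no filter and for 1 hairpin alone are not given here. The counts of those fits are therefore not read as a result about these genes. With single libraries left out, the 51 calls between WT GMP and WT CMP ranged between 25 and 51, the 81 calls between MEP and CMP between 79 and 83, the 52 between MEP and GMP between 39 and 57, and the 76 between MEF and progenitors between 74 and 77. All counts between KO and WT, of differences between effects, of the hairpins without a block and of introns stayed at 0 in these fits.

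With mouse or replicate number as a block, 46 genes were called between GMP and CMP, 81 between MEP and CMP and 51 between MEP and GMP, and 0 between KO and WT in CMP, GMP, MEP, MEF and Lin-Kit+ cells. The block changed no other count of calls beyond 1.5 times. Among named genes, 522 alternative values kept their call, 20 gained and 6 lost it, and with a library left out 544 kept and 12 lost it, the losses of both kinds being those of Cox7a2l, Cox6a2, Ndufb11, Cox6a1, Cox7a1 and Cox4i2 given in the report. None reversed.

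Depth limits the low isoform genes and the retention of introns with few boundary reads. Sums over junctions weigh genes by their number of introns, so they compare libraries only. The median SE of 0.26 (log2) in Lin-Kit+ cells between KO and WT came without a term for the experiment, against 0.13 with the experiment as a block.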

Other observations

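The 2 Zrsr1 hairpins were also compared with each other, and the share of oxidative phosphorylation genes called was not above that of all genes. Over both genotypes with the experiment as a block, 8 of 93 genes were higher with sh1 than with sh10 and 1 was lower by edgeR, while 11.4% of all genes were called. Cox6b2, the testis isoform of a complex IV subunit, had 7.57 and 8.61 CPM with sh1, 2.77 and 1.58 CPM with sh10 and 1.51 and 3.38 CPM with the control hairpin in KO cells. In WT cells it had 4.905 and 8.75 CPM with sh1, 1.17 and 1.54 CPM with sh10 and 2.12 and 3.41 CPM with the control hairpin. The sh1 libraries lay above all sh10 and control libraries (2.09 ± 0.34 SE, adjusted p = 0.00407, between sh1 and sh10). Between sh1 and the control hairpin, edgeR with the block did not call Cox6b2. Its log2 change was 1.86 ± 0.48 SE, adjusted p = 0.0502, in KO and 1.42 ± 0.47 SE, adjusted p = 0.122, in WT. Among the others higher with sh1 were Ndufv3, an accessory complex I subunit (0.84 ± 0.11 SE, adjusted p = 0.0016), Cox4i1 (0.42 ± 0.07 SE, adjusted p = 0.00417), Cox5a (0.39), Ndufb11 (0.38), Cox6c (0.39) and Sdhd (0.35). The gene lower with sh1 was Uqcr11, a small complex III subunit (-0.67 ± 0.13 SE, adjusted p = 0.0093). These genes were chosen after their values were seen.

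The 2 experiments with Lin-Kit+ cells differed in where boundary reads fell. Intron 1 of Atp5g2 had an MSI of 38.5% to 46.1% in the 6 libraries of experiment 1 and 11.6% to 19.6% in the 6 of experiment 2, and intron 1 of Cox4i1 12.7% to 15.6% and 2.905% to 3.63% in the same order. For both introns the 2 experiments did not overlap, whatever the genotype or hairpin.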
